A study of Mus musculus with 8 samples.

Results

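OTX2 peaks around the paralogous homeobox genes Gbx1 and Gbx2 were examined in the embryonic mouse subpallium. A peak from any of the 8 deposited lists was taken when its centre lay within 300 kb of a fixed position for each gene. The positions (mm9) were 91826000 on chromosome 1 for Gbx2 (gene ID 14472) and 24020000 on chromosome 5 for Gbx1 (gene ID 231044). This gave 34 peaks of 26317, with 23 in the Gbx2 window and 11 in the Gbx1 window. The lists came from chromatin immunoprecipitation and sequencing (ChIP-seq) of wild-type CD-1 embryos at E12.5. Every library was made from basal ganglia and septum, dissected and pooled over several embryos. The groups were 3 libraries precipitated with an antibody against OTX2, 3 input libraries (chromatin with no antibody) and 2 libraries precipitated with goat IgG, which the third experiment did not have. No group carried a mutation or a treatment, so the lists describe where OTX2 peaks lay and not what they do to either gene. Pooled tissue does not tell apart septum, medial and lateral ganglionic eminence, nor their progenitors and mantle neurons.

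Both proteins bind DNA through a homeodomain, OTX2 in the developing forebrain and midbrain and GBX2 in the anterior hindbrain. Each represses the other where their domains meet, and this mutual repression positions the border between midbrain and hindbrain, a source of FGF8. In the forebrain, Gbx2 also marks thalamic cells and neurons of the mantle of the medial ganglionic eminence (MGE), and Gbx1 marks neurons of the ventral forebrain. Homeodomains of the OTX type prefer sites with the letters TAATCC, and those of the GBX type prefer TAATTA.

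In the RefSeq order of protein-coding genes (GRCm38.p6), the neighbours of the 2 loci carry symbols of the same families. Agap1 precedes Gbx2, and Asb18 and Iqca follow it after the predicted gene LOC102637806. Agap3 precedes Gbx1, and Asb10 and Iqca1l follow it. The peak coordinates are in mm9, no mm9 annotation was used here, and so no peak was placed in an exon, an intron or a promoter of any gene. Sequences of the peaks were not analysed here for the same reason.

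Of the 2 genes, Gbx2 had an entry in the RefSeq promoter table. The 250 bases before its transcription start (GRCm38.p6, chr1:89931177-89931426, minus strand) are shown because the letters preferred by each factor can be searched there. Capitals mark the only match to the shared homeodomain core TAAT, on either strand.
Gbx2: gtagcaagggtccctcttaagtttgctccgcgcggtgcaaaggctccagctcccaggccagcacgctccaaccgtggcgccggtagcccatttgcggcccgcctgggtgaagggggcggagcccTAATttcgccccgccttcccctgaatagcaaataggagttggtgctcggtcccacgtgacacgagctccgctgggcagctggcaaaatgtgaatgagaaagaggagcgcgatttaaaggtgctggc
The core began at base 125 of the stretch. Neither TAATCC nor TAATTA occurred in it on either strand. Among 32851 promoters of the same length, 6.25% held TAATCC, 4.84% held TAATTA and 54.9% held TAAT, a core that the longer motifs include. The stretch was 61.6% G and C, against a median of 52.4% over all promoters (interquartile range 45.2 to 61.2%).

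The first comparison asked whether peaks around each gene were found with the OTX2 antibody and not in the controls. Around Gbx2 the OTX2 lists held 4 peaks in replicate 1, 1 in replicate 2 and 18 in replicate 3. The 3 input and 2 IgG lists held none. Every OTX2 library thus lay above every control library, although the OTX2 libraries spread widely (7.67 ± 9.07 peaks, SD, n = 3). Around Gbx1 replicate 3 held 11 peaks, and replicates 1 and 2 held none, as did all 5 controls (3.67 ± 6.35 in the OTX2 libraries, SD, n = 3).

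An exact two-sided permutation test of OTX2 against input gave p = 0.10 for Gbx2, the smallest p that 3 against 3 libraries allow, and p = 1.00 for Gbx1. Adjusted by the Benjamini-Hochberg method over the 3 tests made, these were 0.30 and 1.00. Only 1 OTX2 library held peaks around Gbx1, so its p was fixed whatever replicate 3 held, and nothing is read from it. With input and IgG pooled as 5 controls, the exact permutation p was 0.036 for Gbx2 (adjusted over both genes 0.071) and 0.75 for Gbx1. The Gbx2 value is the smallest that 3 against 5 libraries give when the smaller tail is counted for both sides, as here. This pooling counts input and IgG of the same replicate number as separate libraries. Paired by replicate number against input alone, the Gbx2 p was 0.25 (exact paired permutation test), the smallest that 3 pairs allow. Without replicate 3 the mean difference from input fell from 7.67 to 2.50 peaks at Gbx2 and from 3.67 to 0 at Gbx1. The control lists are short, between 138 and 235 peaks, and 87.1% of the 600 kb tiles described below hold no control peak, so empty control windows are the common case. The labels do not say whether the libraries came from separate litters. The p-values come from relabelling these libraries only, and the Gbx2 values, at their smallest, do not depend on how widely the OTX2 libraries spread.

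**Figure D1:**
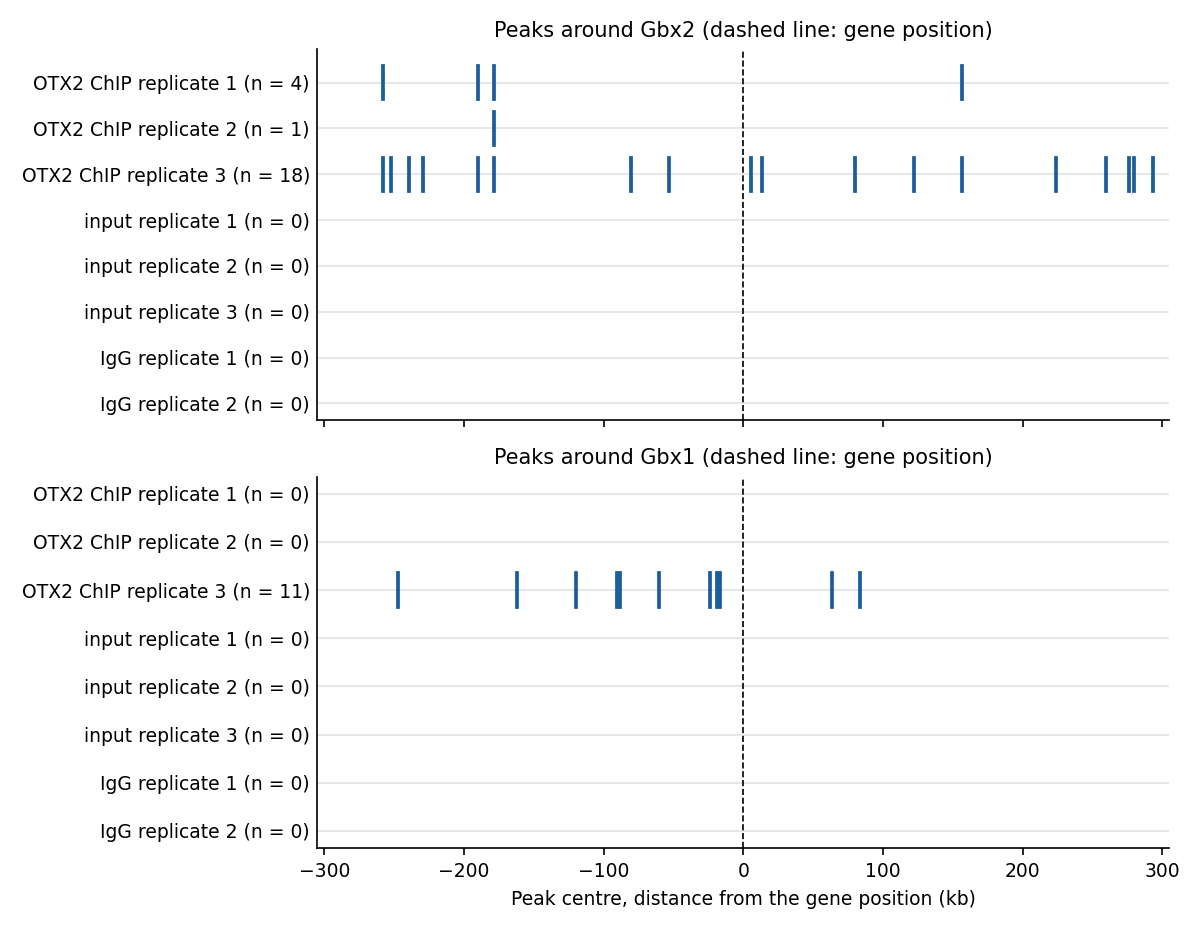
Positions of all peaks within 300 kb of Gbx2 (top) and Gbx1 (bottom) in the 8 libraries, as distance of the peak centre from the gene position in kb; each tick is 1 peak, and n is the number per library. Peaks of more than 1 library line up at 4 places around Gbx2 and at none around Gbx1, and all input and IgG rows are empty.

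The OTX2 lists differ greatly in length, with 1848, 1298 and 22325 peaks in replicates 1, 2 and 3. The track names of the third experiment (OTX2 and input) follow another pattern than those of the other 6 lists, and whether its peaks were called in the same way was not tested. Median peak width was 191, 182 and 827 bp in OTX2 replicates 1, 2 and 3. Read totals are not in the lists, so the depth of each library is unknown. The windows were therefore set beside the same lists in 3710 tiles of 600 kb that hold at least 1 peak of any library. The median tile held 5 replicate 3 peaks (interquartile range 2 to 8). At least 18 such peaks, the number around Gbx2, were held by 2.59% of tiles, and at least 11, the number around Gbx1, by 14.9%. At least 4 replicate 1 peaks, as around Gbx2, were held by 1.51% of tiles, and at least 1 replicate 2 peak by 24.1%. Most tiles, like the Gbx1 window, had no peak of the shorter lists: 32% held any replicate 1 peak. The Gbx2 window was thus among the tiles rich in OTX2 peaks in replicates 1 and 3.

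**Figure D2:**
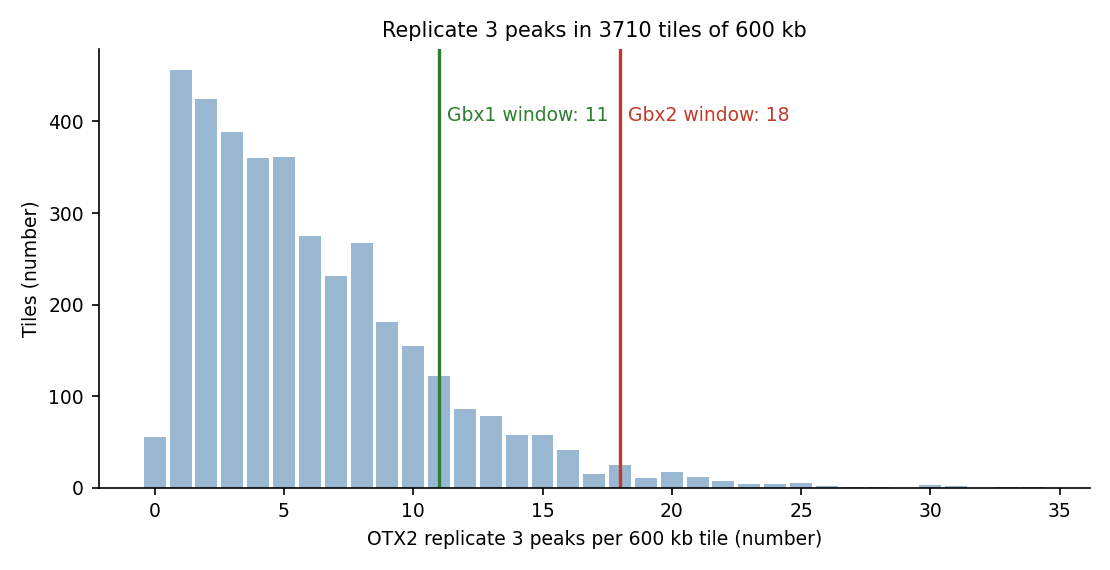
Number of OTX2 replicate 3 peaks per 600 kb tile (x axis) over 3710 tiles (y axis, number of tiles), with vertical lines at the Gbx2 window (18 peaks) and the Gbx1 window (11 peaks). Both lines lie above the median of 5, and the Gbx2 line stands in the thin right end of the distribution.

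The next comparison asked which of these sites were found in more than 1 experiment. Peaks of the 3 OTX2 lists sharing at least 1 bp were merged, and a region was kept when at least 2 libraries contributed and no control peak overlapped it. Over the genome 8.61% of the 22629 merged regions met this rule. The Gbx2 window held 4 such regions and the Gbx1 window none. The 4 regions are those of the window's 4 replicate 1 peaks, and at least 4 such peaks were held by 1.51% of tiles. Over the genome 87.9% of replicate 1 peaks and 92.1% of replicate 2 peaks were overlapped in replicate 3. Being shared with replicate 3 thus does not set these peaks apart from their lists. At least 4 shared regions were found in 1.67% of tiles, and any at all in 33.7%, so the empty Gbx1 window resembles most tiles. The Gbx2 count rested on replicates 1 and 3, and it was 1 without either of them.

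The best-ranked site around Gbx2 was on chromosome 1 from 91646796 to 91648501 (mm9), 178.4 kb to the side of lower coordinates, where Agap1 is the neighbour in GRCm38.p6. It was the only shared region in either window with a peak in all 3 libraries. It was ranked 55 of 1848 in replicate 1, 12 of 1298 in replicate 2 and 31 of 22325 in replicate 3, which is the best 2.98%, 0.924% and 0.139% of each list. By mean rank percentile it was number 25 of the 789 regions that all 3 libraries shared over the genome. It was therefore near the top of each list, and 16.2% of tiles held at least 1 region shared by all 3.

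The peak of the best-ranked site spanned 667 bp (replicate 1), 488 bp (replicate 2) and 1706 bp (replicate 3). Each exceeded the median width of its list, which was 191, 182 and 827 bp. The narrow peaks lay wholly inside the wide one, and their centres were 120.5 and 131 bp to the higher-coordinate side of its centre. The peaks of replicates 1 and 2 thus pointed to nearly the same place within the wider replicate 3 peak.

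The other 3 shared regions were found in replicates 1 and 3 alone. The nearest to the best-ranked site was 11.4 kb from it, on chromosome 1 from 91635426 to 91636973, with ranks of 985 in replicate 1 and 1678 in replicate 3. A region from 91567443 to 91568908, 257.8 kb to the lower side of Gbx2, was ranked 638 and 391. On the higher side, in the direction of Asb18 and Iqca, a region from 91981632 to 91983109 lay 156.4 kb from Gbx2 and was ranked 1055 and 1483. It was the nearest shared region to the gene. The 3 replicate 1 peaks stood, in the same order, at the 53.3, 34.5 and 57.1 percentiles of their list. Those of replicate 3 stood at 7.52, 1.75 and 6.64 in theirs. The lists hold 1848 and 22325 peaks, so the gap between these percentiles is not read as a difference in strength. Each narrow peak again lay inside its replicate 3 counterpart, with centres between 20 and 155.5 bp apart.

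**Figure D3:**
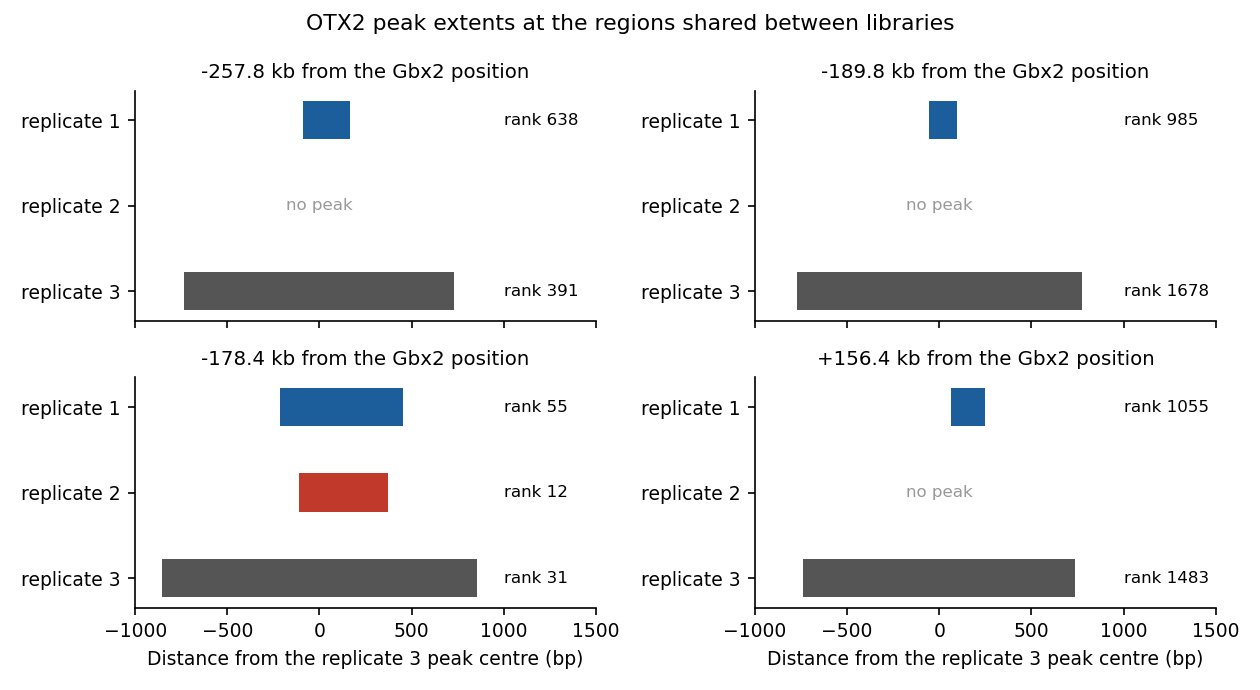
Extent of the OTX2 peak in each library at the 4 regions shared around Gbx2, as distance in bp from the centre of the replicate 3 peak; bars span peak start to end, and the rank in the library's own list is printed beside each bar. The replicate 1 and 2 peaks lie inside the wider replicate 3 peaks, and replicate 2 has a peak at 1 of the 4 regions, where it is ranked 12.

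Next to the Gbx2 position itself, replicate 3 alone had peaks. The nearest ran from 91830912 to 91831975, 5.44 kb from the gene position on the side of higher coordinates, and was ranked 1722 (the best 7.71% of the list). Gbx2 is on the minus strand in GRCm38.p6, which makes this the upstream side if the orientation is the same in mm9, which was not checked here. A second peak 13.5 kb away on the same side was ranked 12389. No other peak of any library lay within 50 kb of the gene, and the nearest peaks of replicates 1 and 2 were 156.5 and 178.2 kb away. The site next to Gbx2 therefore had no counterpart in the shorter lists.

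Peaks of similar rank were often missing from the shorter lists. Of the 500 replicate 3 peaks nearest to it in rank (250 on each side), 40.8% were overlapped in replicate 1 or 2. The corresponding share was 99.6% around rank 31 (of 280 peaks, since only 30 rank above it), 95.4% around rank 391, 46.8% around rank 1483 and 41.8% around rank 1678, the ranks of the 4 shared regions. Of the Gbx2 peaks in the best-ranked 10% of replicate 3, 4 of 5 were overlapped in another OTX2 library. The exact Clopper-Pearson 95% interval was 28.4 to 99.5%, against 64.6% of such peaks over the genome. None of the other 13 was overlapped, against 2.64% over the genome (0 of 13 allows up to 23.1%). In the whole window 4 of 18 were overlapped (22.2%, exact Clopper-Pearson 95% interval 6.41 to 47.6%), against 8.83% of the list. Both intervals contain the share over the list, so neither share sets the Gbx2 peaks apart from it.

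The 14 Gbx2 peaks that replicate 3 alone held were ranked from 1722 to 21259. In the median the 18 peaks stood at the 37.9 percentile of the list, with 5 of 18 in the best-ranked 10%, which holds 10% of the list by construction. Of the 18 peaks, 6 were more than 100 kb to the lower side, 3 of them shared with other libraries. On the higher side 5 peaks were more than 200 kb away, none of them shared. The latter were ranked between 6939 and 16405, and the best-ranked of them, from 92100275 to 92103772, was also the widest of the window at 3498 bp. The median distance from a Gbx2 peak to the nearest other replicate 3 peak was 11.4 kb, against 22.9 kb over the list. A window with many peaks has short distances between them, so this does not show grouping, which was not tested. After the 4 shared regions and the site next to the gene, the next best rank in the window was 5882.

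Around Gbx1 the 11 replicate 3 peaks lay closer to the gene, and none was found in another library. Their ranks ran from 2222 to 21233, and their median percentile was 32.5. The best-ranked peak, on chromosome 5 from 24000654 to 24001581, was 18.9 kb to the lower side and stood just inside the best-ranked 10%. The others among the 5 best were ranked 2750 (from 24082947 to 24083926, 63.4 kb to the higher side), 3675 (from 23772244 to 23773249, 247.3 kb to the lower side), 5900 (from 23931464 to 23932221, 88.2 kb to the lower side) and 7124 (from 24102153 to 24104433, 83.3 kb to the higher side). No Gbx1 peak therefore reached the ranks of the 4 shared Gbx2 regions or of the site next to Gbx2.

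The peak nearest to Gbx1, 16.4 kb away from 24003313 to 24003938, was ranked 11735. It belonged to a group of 3 between 16.4 and 23.7 kb to the lower side, which includes the best-ranked peak of the window. A pair of peaks ranked 5900 and 7254 stood 2.36 kb apart at about 88.2 and 90.5 kb on the same side. In all, 9 of the 11 lay on the lower side, toward Agap3, and 2 on the higher side. Around Gbx2 the 18 were divided 8 to 10. The median width was 917 bp around Gbx1 and 973.5 bp around Gbx2, against 827 bp over the list.

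None of the 11 Gbx1 peaks was overlapped in replicate 1 or 2, which allows a share of up to 27.3% and so does not set them apart from the 8.83% of the list. Among the 500 peaks nearest in rank to the best Gbx1 peak 24% were overlapped, and the share fell to 19% at rank 2750 and to 10% at rank 3675. The nearest shared region to Gbx1 lay outside the window, 493.6 kb to the lower side from 23524774 to 23527931, with rank 1141 in replicate 2 and 613 in replicate 3. A second lay 520.9 kb away with rank 1701 in replicate 1 and 7483 in replicate 3, and no further one was within 1 Mb. Within 1 Mb of Gbx2 there were 5 shared regions, the fifth 545.7 kb to the higher side with ranks of 940, 714 and 2501 in the 3 libraries.

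**Figure D4:**
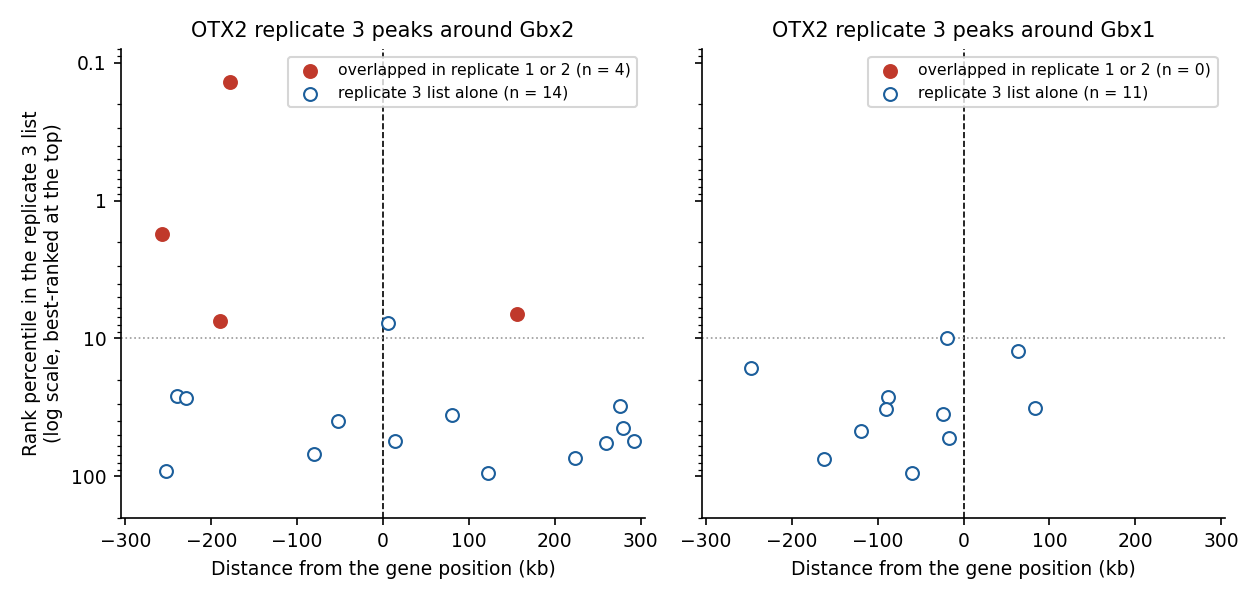
Rank percentile of each OTX2 replicate 3 peak in its list (y axis, log scale, best-ranked at the top) against distance from the gene position in kb, around Gbx2 (18 peaks) and Gbx1 (11 peaks); filled points were overlapped by a replicate 1 or 2 peak, and the dotted line marks the best-ranked 10%. The 4 filled points are all around Gbx2 and at least 156.4 kb from the gene, and the best Gbx1 peak sits at the dotted line.

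The last comparison set the 2 loci against each other within each OTX2 library. The Gbx2 window held 4, 1 and 7 more peaks than the Gbx1 window in replicates 1, 2 and 3 (mean 4, exact two-sided paired permutation test, p = 0.25, the smallest that 3 pairs allow, adjusted over 3 tests 0.375). The direction depended on the size of the window. Within 100 kb replicate 3 held 5 peaks around Gbx2 and 8 around Gbx1, replicates 1 and 2 held none, and the mean difference was -1. In tiles of 200 kb, at least 8 replicate 3 peaks were found in 3.27% and at least 5 in 14.9%. Within 200 kb replicate 3 held 9 peaks around Gbx2 and 10 around Gbx1, whereas replicates 1 and 2 held 3 and 1 around Gbx2 and none around Gbx1. The replicate 3 excess around Gbx2 thus lay between 200 and 300 kb from the gene, and that of replicates 1 and 2 lay mostly between 100 and 200 kb.

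At the edges of the windows, the outermost replicate 3 peaks inside were 257.8 kb (rank 391) and 292.9 kb (rank 12400) from Gbx2, and 247.3 kb (rank 3675) and 83.3 kb (rank 7124) from Gbx1, on the lower and higher sides. The first ones outside were 352.4 kb (rank 7545) and 349.8 kb (rank 12845) from Gbx2, and 349.4 kb (rank 18181) and 328.4 kb (rank 19934) from Gbx1. The nearest control peak to Gbx1 belonged to IgG replicate 1 and lay 362.9 kb away, outside the window. The nearest to Gbx2 belonged to IgG replicate 2, 1644 kb away.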

How the data were processed

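The authors deposited 1 peak list per library, giving chromosome, start, end and a rank within the list, in mm9. BWA, MACS 1.4 and mm9 are named in the submitters' processing notes, without parameters (thresholds and control pairing: not given in the sources used here). These lists hold no height, fold or p-value, so ranks were read only as an order within a list, and rank percentile is rank over list length. Coordinates are written 1-based.

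Members and lists were chosen with earlier results of these data known. Positions of the genes come from the rule that defines the windows, rounded to 1 kb. Scripts for overlaps, merging and windows (Python 3.11.15, scipy 1.17.1, numpy 2.4.6) were tested on simulated peaks. Tiles started at the first base of each chromosome, without mitochondrial DNA, and those with no peak in any list were left out. Intervals and limits from a count of 0 (3 counts) cover counting error only. Regions named are all shared regions, the 5 best-ranked replicate 3 peaks per window, the nearest peak per list, peaks at the window edges and control peaks in a window. Others named, such as the widest peak, close pairs, the second peak beside Gbx2, peaks outside the windows and the TAAT core, were chosen after seeing the values. Promoters are from RefSeq (GRCm38.p6), without bases after the start. Protein sequences were not analysed here. Alternatives were other window sizes, any overlap with the window, the better-ranked 50% of each list, overlap of 50% of the shorter peak, control peaks kept, all 3 libraries, each replicate left out, IgG added as control and pairing by replicate number.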

Additional observations from a re-analysis of the deposited data

How the results depend on the processing

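Of 61 alternatives over 9 results, 51 kept direction and call or stayed within the stated range (1.5 times for counts, the 95% interval for shares, 10 points for median rank percentiles). For differences in peak number, the call (p below 0.05) could change only at Gbx2 with IgG added to the controls. In all other settings p could not fall below 0.10, so keeping the call there says nothing about stability. Of the 51, some differences in peak number kept their direction and call but moved by over 1.5 times. OTX2 minus input at Gbx2 was 1.67 in windows of 100 kb (exact permutation p = 1.00, fixed since only replicate 3 held peaks there). It was 4.67 in the better-ranked 50% of each list. The Gbx1 difference from input was 5.67 in windows of 500 kb, and Gbx2 minus Gbx1 was 2 in the better-ranked 50%. With windows of 100 kb the Gbx2 minus Gbx1 difference was -1, the Gbx2 window held 0 shared regions and 0% of its replicate 3 peaks were overlapped in another library. With windows of 500 kb the Gbx1 window held 1 shared region. The Gbx2 window held 2 shared regions in the better-ranked 50% of each list and 1 when all 3 libraries were required. With IgG added to the controls the Gbx2 difference of 7.67 peaks had an exact permutation p of 0.036. Input and IgG of the same replicate number were counted there as separate libraries. Leaving out each replicate gave differences from input of 2.50 to 11 peaks for Gbx2 and 0 to 5.50 for Gbx1, a difference between the genes of 2.50 to 5.50, 1 to 4 shared regions for Gbx2 and 0 for Gbx1. Since replicates 1 and 2 hold no peak around Gbx1, the value of 0 is that without replicate 3. Paired by replicate number as a block, the differences from input were 7.67 for Gbx2 (exact paired permutation test, p = 0.25, the smallest 3 pairs allow) and 3.67 for Gbx1 (p = 1.00). The Gbx1 p was again fixed, because only replicate 3 holds peaks there. Deviations of OTX2 and input libraries from their group means (log2 of peak number plus 1) were compared over the 3710 tiles. Same-numbered libraries correlated with r of -0.028, 0.0037 and -0.015 for replicates 1, 2 and 3. The input lists have no peak in 95.1 to 97.6% of these tiles, so such a correlation could hardly show pairing. Whether the numbers pair the libraries was thus not decided. The blocked p could not fall below 0.25, so no call could change. Depth is unknown, and whether peaks were called alike in the 3 experiments was not tested. A site missing from the shorter lists is therefore not shown to be unbound in those libraries.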

Other observations

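The same letters were searched in the 250 bases before the starts of 2 gene lists. Of 15 genes of the midbrain and hindbrain border, 10 had entries, with 15 promoters. TAATCC was found in 1 of the 15, a promoter of Otx2, and TAATTA in 2, both of Otx2. Of 12 genes of subpallial patterning, 9 had entries, with 11 promoters. TAATCC was found in 1, of Isl1, a LIM homeodomain gene of LGE neurons, and TAATTA in none. TAATCC was thus in 6.67% and 9.09% of the promoters of the 2 lists, against 6.25% of all promoters, and TAATTA in 13.3% and 0%, against 4.84%. The numbers are small and several promoters belong to 1 gene, so nothing particular to the lists is read from them.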
